A study of Homo sapiens with 24 samples.

Results

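The transcripts of 9 genes that act as tumour suppressors, or are often deleted beside one, were followed: RB1, SMAD4, CDKN2A, CDKN2B, MTAP, STK11, NF1, NF2 and BRCA1. They were chosen by symbol, each symbol matched 1 Ensembl gene in the deposited count files, and together they are 9 of 37416 genes. All 9 passed the filter on low counts that left 21352 genes for testing. The questions were in which breast cancer lines each gene was near zero, and whether its level differed on ADAR1 knockdown in the other lines.

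RNA was sequenced from BT549, HCC1806, MDAMB231 and MDAMB468, all human lines that the series describes as triple-negative breast cancer, a tumour class without oestrogen receptor, progesterone receptor or HER2 amplification. Each line was infected for 24 h with a lentivirus carrying a short hairpin RNA against ADAR1 (shADAR1), the RNA-editing enzyme encoded by ADAR, or a non-targeting hairpin (shNT), and then kept in 2 µg/ml puromycin for 72 h. The shNT controls therefore carried a hairpin and the drug as well. There were 3 biological replicates for each of the 8 groups, 24 libraries in all, but each line is a single established culture, and whether more than 1 hairpin against ADAR1 was used is not given in the sources used here. The labels do not say how replicates were kept apart, so p-values measure the spread between these libraries, which may be partly technical.

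RB1 encodes the retinoblastoma protein, which holds E2F transcription factors inactive until cyclin-dependent kinases phosphorylate it. CDKN2A encodes p16INK4a, an inhibitor of CDK4 and CDK6, and, from another first exon and reading frame, p14ARF, which inhibits MDM2. CDKN2B encodes the related inhibitor p15INK4b. MTAP, on the same arm of chromosome 9, encodes the methionine salvage enzyme methylthioadenosine phosphorylase and is often deleted together with CDKN2A in tumours. SMAD4 carries TGF-beta signals to the nucleus, STK11 encodes the kinase LKB1, NF1 encodes neurofibromin, a RAS GTPase-activating protein, NF2 encodes merlin, which acts upstream of the Hippo kinases, and BRCA1 acts in repair of DNA breaks by homologous recombination.

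The 3 neighbouring members on chromosome 9 are the ones that were near zero together in MDAMB231, and the bases upstream of their starts are shown for that reason. Each sequence is the 250 bases before a RefSeq start on GRCh38.p14, 5′ to 3′ on the strand of the gene, with CG dinucleotides, the sites of DNA methylation, in capitals. RefSeq promoter entries were found for 9 of the 9 genes, but the one for RB1 (chr13:48476200-48476449) lies inside its gene body. CDKN2A has 2 starts in that table. The upstream one lies at chr9:21995325-21995574 and the downstream one at chr9:21974858-21975107, both on the minus strand. CDKN2B lies at chr9:22009306-22009555 on the minus strand and MTAP at chr9:21802386-21802635 on the plus strand.
CDKN2A, upstream start: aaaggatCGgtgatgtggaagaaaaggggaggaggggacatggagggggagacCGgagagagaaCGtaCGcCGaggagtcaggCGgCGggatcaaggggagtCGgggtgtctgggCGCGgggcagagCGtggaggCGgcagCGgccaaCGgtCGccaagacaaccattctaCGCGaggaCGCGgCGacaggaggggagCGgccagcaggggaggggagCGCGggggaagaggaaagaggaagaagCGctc
CDKN2A, downstream start: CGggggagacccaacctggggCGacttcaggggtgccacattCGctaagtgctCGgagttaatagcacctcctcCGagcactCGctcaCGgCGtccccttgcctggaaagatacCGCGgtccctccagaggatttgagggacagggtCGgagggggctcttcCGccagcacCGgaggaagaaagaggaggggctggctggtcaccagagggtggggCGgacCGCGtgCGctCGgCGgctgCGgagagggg
CDKN2B: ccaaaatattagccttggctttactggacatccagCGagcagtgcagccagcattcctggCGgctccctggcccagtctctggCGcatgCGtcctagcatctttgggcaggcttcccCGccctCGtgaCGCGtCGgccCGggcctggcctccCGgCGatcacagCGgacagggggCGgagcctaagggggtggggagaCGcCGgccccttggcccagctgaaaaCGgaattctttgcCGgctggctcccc
MTAP: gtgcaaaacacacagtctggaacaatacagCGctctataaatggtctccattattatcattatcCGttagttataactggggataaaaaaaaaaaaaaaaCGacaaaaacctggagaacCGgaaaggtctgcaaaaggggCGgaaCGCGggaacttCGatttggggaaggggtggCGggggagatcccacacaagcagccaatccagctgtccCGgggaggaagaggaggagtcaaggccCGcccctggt

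Among 35116 RefSeq promoters of that length the median number of CG dinucleotides was 11, with quartiles of 3 and 23. The CDKN2A windows held 24 and 20, more than 76.3% and 67.6% of all promoters, and the CDKN2B window held 18, more than 63.2%. The MTAP window held 11, more than 49.7%. These are counts of letters in the reference, and no methylation was measured.

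Total counts ran from 10370645 to 97218217 per library. ADAR, the targeted gene, did not overlap between the arms of any line: its shADAR1 mean was 26.1% of the shNT mean in BT549, 33.1% in HCC1806, 21.8% for MDAMB231 and 37.1% for MDAMB468. Some markers of the labelled tissue differed by line. In shNT, EPCAM, an epithelial adhesion protein, had 0 counts in BT549 and stood at 299.7 CPM in HCC1806, and the oestrogen receptor gene ESR1 stood at 19.0 CPM in HCC1806 and 6.84 in MDAMB468. The progesterone receptor gene PGR was highest in MDAMB231, at 0.737 CPM. ERBB2, which encodes HER2, ran from 75.9 CPM in MDAMB468 to 100 CPM in HCC1806. Leukocyte and endothelial markers were low: none of the 7 reached 5 CPM in a shNT group.

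Levels are given as CPM, read counts brought to a common library total, after scaling by the trimmed mean of M-values (TMM), and means carry the SD over 3 libraries. A gene was called near zero in a line if its shNT mean was at most 5% of that in the highest line, which had to reach 1 CPM. By that rule 6 of the 36 pairs of gene and line were near zero, and they involved RB1, CDKN2A, CDKN2B and MTAP only. The genes had been listed as lost in these lines. Near-zero RNA, which is not a measure of loss, was found for 4 of them, while SMAD4 lay just outside the limit in MDAMB468 and STK11, NF1, NF2 and BRCA1 were expressed in every line. Since the genes were listed for this pattern, their levels are a description and no test between lines is given. For the background, 12.6% of the 16092 genes reaching 1 CPM in some line were near zero in BT549, 6.82% in HCC1806, 9.64% for MDAMB231 and 10.2% for MDAMB468. Below, a line is said to have kept a gene if the gene was not near zero there. The word refers to RNA only and does not mean that the gene was shown to be intact.

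**Figure D1:**
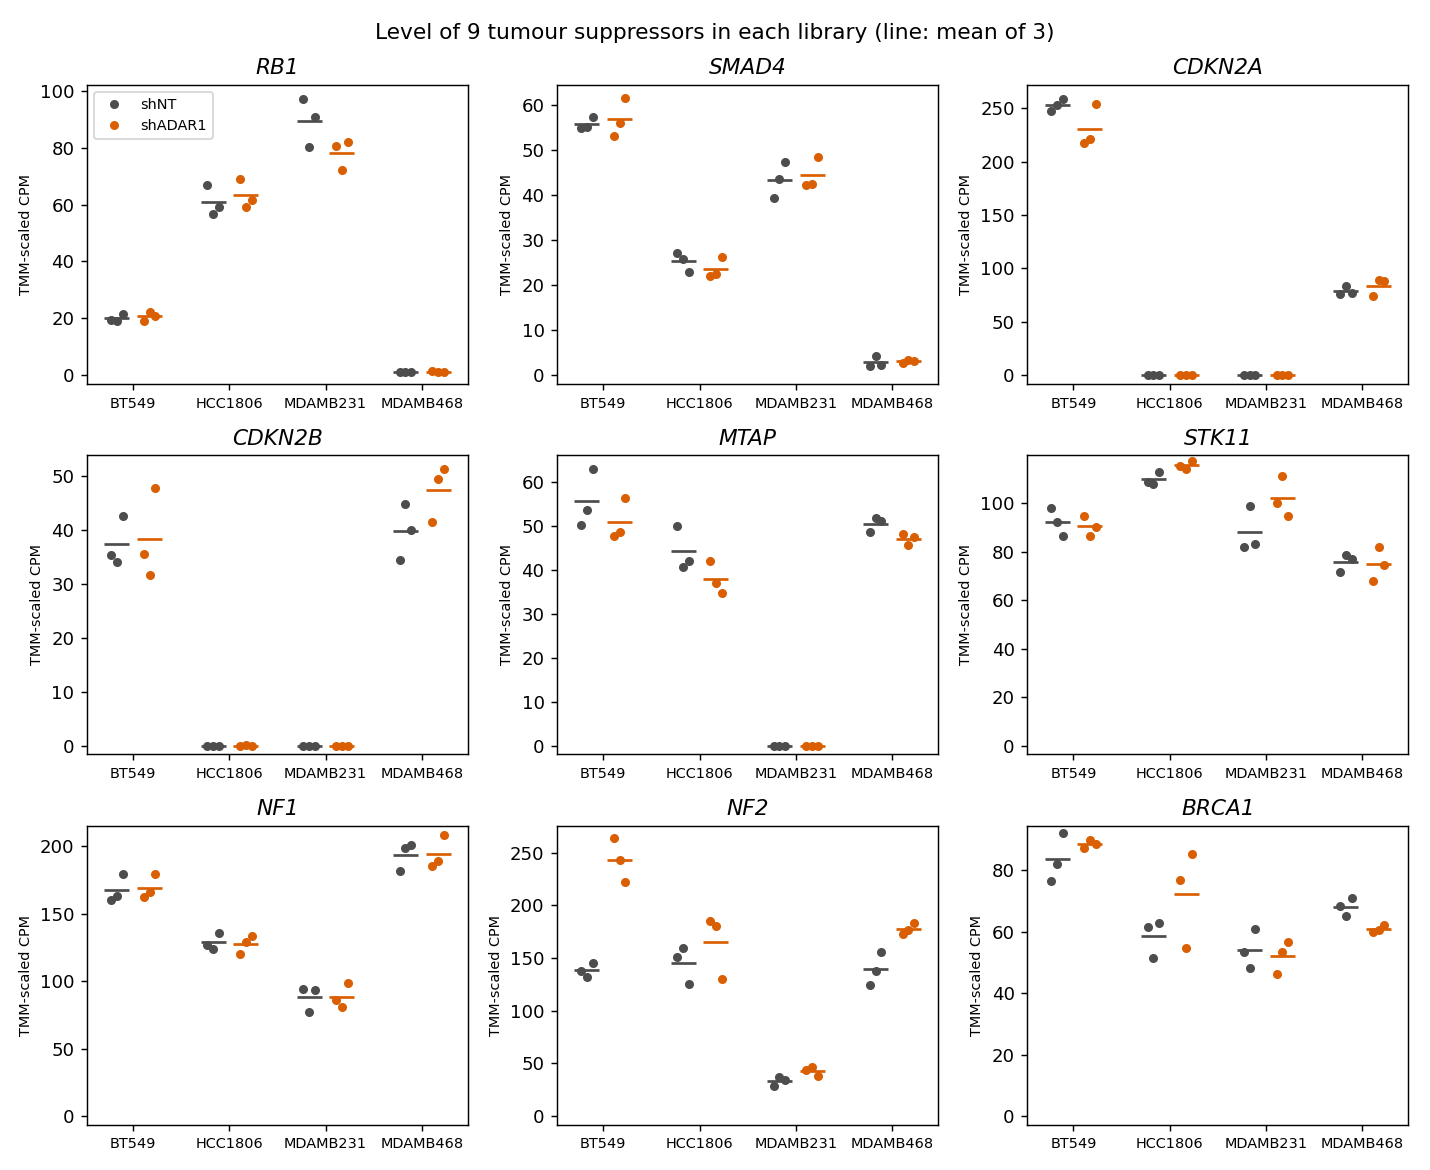
TMM-scaled CPM (linear axis from 0) of the 9 genes in each of the 24 libraries, by line, with shNT in grey and shADAR1 in orange; horizontal bars are means of 3 libraries. CDKN2A and CDKN2B sit at or near 0 in HCC1806 and MDAMB231, MTAP at 0 in MDAMB231 and RB1 near 1 in MDAMB468, while NF2 stands higher in shADAR1 than in shNT of BT549.

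CDKN2A (ENSG00000147889, chromosome 9, 21967753 to 21995301, minus strand) had the widest range of the 9. In shNT it was counted at 247, 253 and 259 CPM in BT549 and at 75.7, 83.8 and 77.0 CPM in MDAMB468. In HCC1806 and MDAMB231 it had 0 counts in all 3 shNT libraries, and also in all 3 shADAR1 libraries. Such a 0 in shNT was seen for 0.907% of genes reaching 1 CPM in some line in HCC1806 and for 2.43% in MDAMB231. Lines with and without the transcript were thus fully separated. A total of 3 counts over the 3 shNT libraries, taken as the limit of a 0, corresponds to 0.0245 CPM in HCC1806 and 0.0297 CPM in MDAMB231, so the level was at least 10342-fold lower in HCC1806 and at least 8521-fold lower in MDAMB231 than in BT549. The limit covers counting error only. The count is of the whole gene, so p16INK4a and p14ARF transcripts are not separated.

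CDKN2B (ENSG00000147883, chromosome 9, 22002903 to 22009363, minus strand) was at 35.3, 34.1 and 42.7 CPM in the shNT libraries of BT549 and at 34.5, 44.8 and 40.0 CPM in those of MDAMB468, ranges that overlapped. It had 0 counts in every shNT library of HCC1806 and MDAMB231, at least 1626-fold and 1339-fold lower than in MDAMB468. The shADAR1 libraries of MDAMB231 were also at 0 counts, and those of HCC1806 held 0, 2 and 2 counts. Their total of 4 is above the limit of 3 counts over a group. Their mean was 0.0211 ± 0.0203 CPM, below the 0.0245 CPM taken as the limit of the 0 in shNT of HCC1806.

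MTAP (ENSG00000099810, chromosome 9, 21802543 to 21937651, plus strand) parted from the kinase inhibitors in 1 line. It was at 50.2, 53.6 and 62.8 CPM in BT549, 49.95, 40.6 and 42.0 CPM in HCC1806, and 48.6, 51.6 and 51.0 CPM in MDAMB468. It had 0 counts in all 6 libraries of MDAMB231, at least 1871-fold lower in shNT than in BT549. HCC1806, with no CDKN2A or CDKN2B counts in shNT, kept MTAP at 79.5% of the highest line.

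The genes within 1 Mb of them showed which neighbours shared the near-zero levels. Of the other genes within 1 Mb of CDKN2A, 10 reached 1 CPM in some line. In MDAMB231 8 of these 10 were near zero, and in HCC1806 3 of 10, but these counts include CDKN2B and MTAP, which were listed for the same pattern. Among the 8 neighbours that are not among the 9 genes, 6 were near zero in MDAMB231, against 9.64% of all genes reaching 1 CPM, and 2 in HCC1806, against 6.82%. The 8 in MDAMB231 were HACD4, a fatty acid elongation enzyme with 2 counts over 3 shNT libraries, and KLHL9, an adaptor of a ubiquitin ligase, SNORD39, MTAP, ENSG00000264545, CDKN2B, ENSG00000274055 and DMRTA1, each with 0. With CDKN2A they spanned chr9:20999515-22455740 as the files list the coordinates, 1456 kb. No gene beyond DMRTA1 within 1 Mb reached 1 CPM, so no kept gene bounded the span on that side. The far end of that span rests on DMRTA1, which was also near zero in MDAMB468, a line that kept CDKN2A, CDKN2B and MTAP: it stood there at 0.226 ± 0.202 CPM, 3.62% of the 6.26 CPM in BT549. Without DMRTA1 the span ended at ENSG00000274055 (base 22046901) and was 1047 kb. Within that span RN7SL151P, a copy of the abundant 7SL RNA to which reads of its relatives may be assigned, was not near zero, and FOCAD, the next expressed gene toward the telomere (named after its values were seen), stood at 27.2% of its highest line. In HCC1806 the 3 were ENSG00000264545, CDKN2B and ENSG00000274055. ENSG00000264545 shares 460 exon bases with MTAP on the same strand. In HCC1806 it had 0 counts in both arms, where MTAP had 5263 in shNT and 6719 in shADAR1. How reads in shared bases were assigned is not given. MTAP, whose gene body overlaps that of ENSG00000264545 (21802636 to 22032986), was kept in HCC1806, at 79.5% of its highest line. Beyond ENSG00000274055, DMRTA1 lay just above the limit, at 0.338 ± 0.192 CPM from 38 counts over 3 libraries (5.40%). That was close to the level of DMRTA1 in MDAMB468.

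RB1 (ENSG00000139687, chromosome 13, 48303751 to 48481986, plus strand) was low but not absent in MDAMB468. Its shNT libraries there gave 1.06, 1.28 and 1.18 CPM, from 28, 62 and 67 counts, and the shADAR1 libraries 1.40, 1.17 and 1.08 CPM. In shNT it was at 19.4, 19.0 and 21.6 CPM in BT549, 66.9, 56.5 and 59.1 CPM in HCC1806, and 97.3, 80.3 and 90.9 CPM in MDAMB231. No neighbouring lines in this order overlapped. MDAMB468 stood at 1.31% of MDAMB231 and BT549 at 22.3%. In bulk RNA a level of this size cannot be split between fewer cells with the transcript and less transcript per cell.

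Around RB1 in MDAMB468 the levels were graded, from 0 counts for 1 neighbour to 100% of the highest line. Of 11 neighbours within 1 Mb that reached 1 CPM in some line, 1 was near zero, against 10.2% of such genes. That gene was LPAR6, a lysophosphatidic acid receptor that lies within the RB1 gene body on the opposite strand. It had 0 counts in both arms of MDAMB468, against 19.0, 3.55 and 2.94 CPM in shNT of BT549, HCC1806 and MDAMB231. RB1-DT, a divergent transcript beside the RB1 start, was at 5.87% of its highest line and RCBTB2, the next gene beyond LPAR6, at 9.41%. RB1-DT was not particular to MDAMB468, where it stood at 0.201 CPM. It was lower still in HCC1806 (0.127 CPM) and MDAMB231 (0.0812 CPM), the lines with the most RB1, and at 3.43 CPM in BT549. MDAMB468 was the lowest of the 4 lines for 8 of the 11 neighbours, where it was lowest for 27.3% of all such genes. In BT549, where RB1 was at 22.3%, 0 of the 11 neighbours were near zero, against 12.6% of such genes. BT549 was lowest for 0 of them, against 26.4% of such genes.

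**Figure D2:**
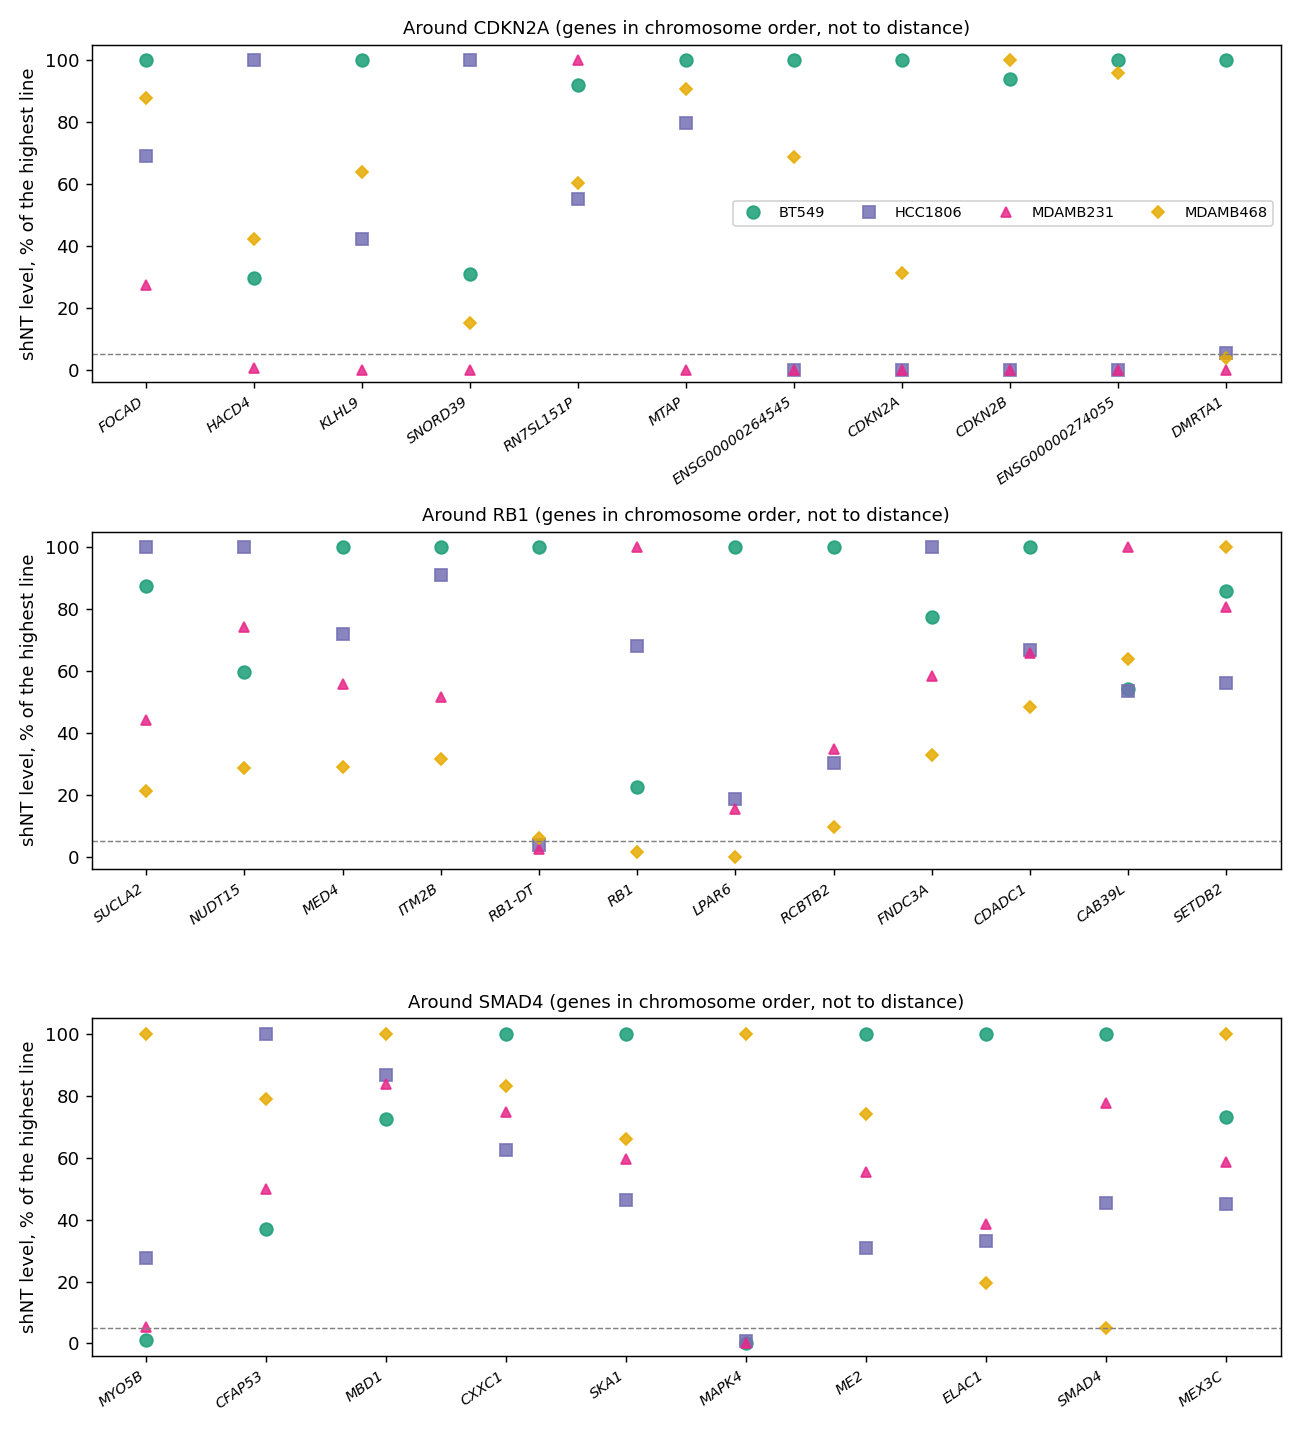
Mean shNT level in each line as a percent of the highest line (linear axis) for CDKN2A, RB1, SMAD4 and the genes within 1 Mb of each that reached 1 CPM, in chromosome order and not to distance; the dashed line marks 5%. Around CDKN2A the triangles of MDAMB231 lie at or near 0 from HACD4 to DMRTA1 except for RN7SL151P, while around SMAD4 the MDAMB468 diamonds are spread from 5.07% for SMAD4 itself to 100% for MEX3C.

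SMAD4 (ENSG00000141646, chromosome 18, 51028394 to 51085045, plus strand) was just outside the limit in MDAMB468, at 5.07% of BT549. The 3 shNT libraries of MDAMB468 gave 2.12, 4.19 and 2.17 CPM from 56, 202 and 123 counts. Without the second of these the share was 3.85%, inside the limit, so that library decided on which side the gene fell. In the other lines shNT means were 55.8 ± 1.302 CPM in BT549, 43.4 ± 4.05 in MDAMB231 and 25.3 ± 2.14 in HCC1806, with no overlap between neighbours in this order. None of the 9 neighbours of SMAD4 that reached 1 CPM was near zero in MDAMB468, against 10.2% of such genes. That line was lowest for 1 of them, against 27.3% of such genes. The 1 gene was ELAC1, at 0.557 CPM or 19.6% of its highest line. An unnamed gene, ENSG00000267699, shares 7.37% of the exon bases of SMAD4 on the same strand, so reads there may belong to either.

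The other 4 genes were expressed in all lines. STK11 means in shNT ran from 75.8 CPM in MDAMB468 to 110.0 CPM in HCC1806, NF1 from 88.1 in MDAMB231 to 194 in MDAMB468, and BRCA1 from 54.1 in MDAMB231 to 83.5 in BT549. NF2 was at 138 ± 6.95, 145 ± 17.7 and 139 ± 15.5 CPM in BT549, HCC1806 and MDAMB468, with overlapping libraries, and stood at 33.3 ± 4.61 CPM in MDAMB231, 22.9% of the highest line. Of 33 neighbours of NF2 reaching 1 CPM, 2 were near zero in MDAMB231, against 9.64% of such genes, while MDAMB231 was the lowest line for 18 of the 33, against 23.0% of such genes. Per kilobase of the exon length listed in the files, which lets genes be set side by side, the highest shNT level among the 9 was CDKN2A in BT549, at 58.4 CPM per kb, and RB1 in MDAMB468 stood at 0.191 CPM per kb.

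For the 4 genes with a near-zero line, the 3 genes with the closest pattern over the 12 shNT libraries were found by Pearson correlation of log2(CPM + 1), as a description across libraries that share lines. Those of RB1 were ZBTB20 (0.994), LPAR1 and CD68. Those of CDKN2A were FOXB1 (0.997), LINC01535 and LINC01606. For CDKN2B they were ENSG00000267605 (0.996), ZNF793 and FGD1, and for MTAP they were ZIC1 (0.998), H4C5 and H2AC7. All 12 lay on other chromosomes than the gene they resembled.

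The RNA values show which transcripts were near zero. A deleted gene and a gene that is present but silent cannot be told apart from them.

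In the lines that kept them, log2 fold changes of shADAR1 against shNT ran from -0.22 to 0.31 for the 8 genes other than NF2. The test was edgeR's quasi-likelihood test over all 21352 genes, with Benjamini-Hochberg adjusted p-values and a threshold of 0.05. It called 1 of the 9 kept members in BT549, where 0.473% of all genes were called. For HCC1806 it called 0 of 7 (background 0.0468%), for MDAMB231 0 of 6 (2.01%), and for MDAMB468 0 of 8 (0.0375%). In these 3 lines 1, 2 and 1 members had an unadjusted p under 0.05, and DESeq2 called 0 in each. The median log2 fold change over the kept members was 0.026 for BT549, 0.058 for HCC1806, 0.020 for MDAMB231 and 0.046 for MDAMB468, beside 0.014, 0.0039, 0 and 0.010 over all genes tested. For the mean effect over the lines that kept each gene, 1 of 9 members was called, where the share of all genes called was 2.96% over the 4 lines (STK11, NF1, NF2, BRCA1 and SMAD4), 2.62% over those that kept RB1, 0.763% over those that kept CDKN2A and CDKN2B, and 0.974% over those that kept MTAP.

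**Figure D3:**
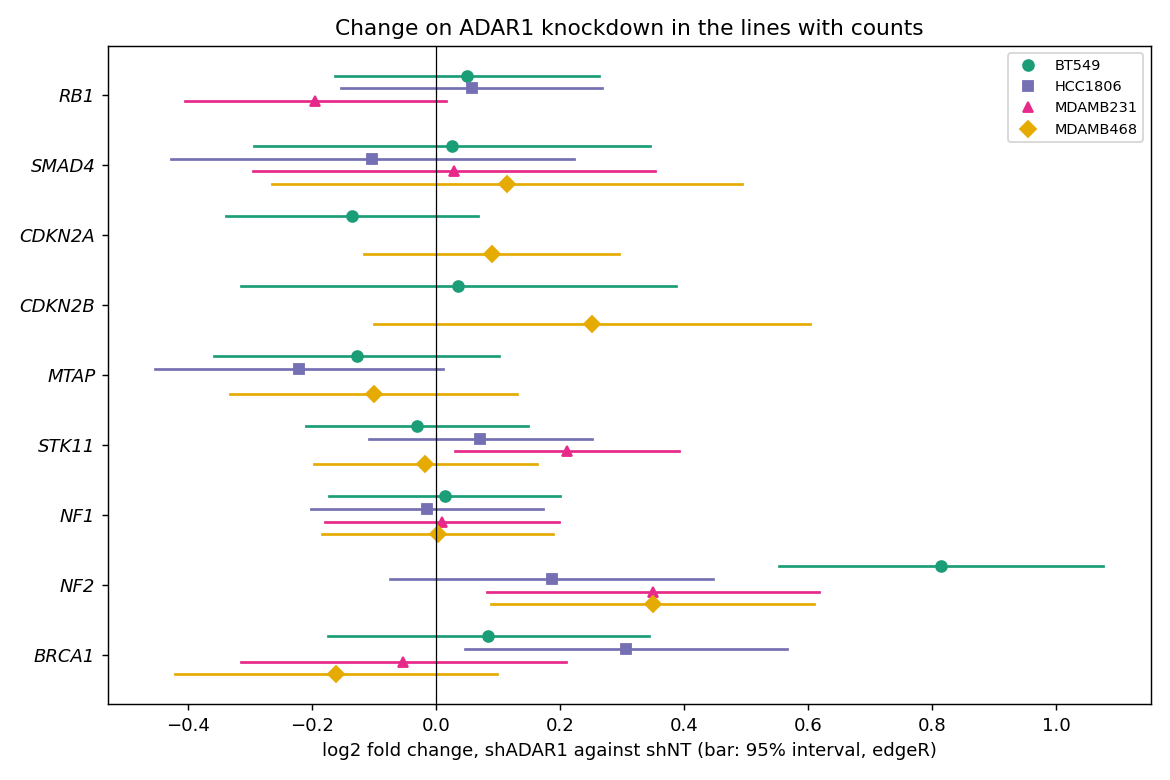
Log2 fold change of shADAR1 against shNT for each gene in each line where it was not near zero, with 95% intervals from edgeR (linear axis, line at 0). NF2 in BT549 lies farthest from 0, at 0.81, and the 4 NF1 values lie closest together.

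NF2, which encodes merlin, a membrane-linked scaffold that activates the Hippo kinases, rose on ADAR1 knockdown. In BT549 its shNT libraries were at 137, 132 and 146 CPM and its shADAR1 libraries at 264, 243 and 222 CPM, so that the arms were far apart. The log2 fold change was 0.81 (SE 0.126, 95% interval 0.55 to 1.08, edgeR adjusted p = 0.00122), 1.76-fold. In HCC1806 the shNT libraries were at 151, 160 and 126 CPM and the shADAR1 libraries at 186, 181 and 130 CPM, which overlapped. The log2 fold change there was 0.19 (SE 0.126, edgeR adjusted p = 1).

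In MDAMB231, the line with the lowest NF2, shNT libraries gave 28.2, 37.2 and 34.5 CPM and shADAR1 libraries 43.5, 46.4 and 38.3 CPM, with no overlap. In MDAMB468 the values were 124, 138 and 155 CPM against 173, 177 and 183 CPM, also with no overlap. The log2 fold change was 0.35 in both, and did not pass edgeR's threshold without a replicate block (adjusted p = 0.228 in MDAMB231 and 1 in MDAMB468). With the replicate number as a block, which the pairing of the libraries allows, the adjusted p from edgeR was 0.00765 in MDAMB231 and 0.0138 in MDAMB468. The shADAR1 libraries lay above all shNT libraries in BT549, MDAMB231 and MDAMB468, as they did for 8.24%, 7.19% and 6.69% of all genes tested.

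Averaged over the 4 lines, NF2 rose by 0.43 on the log2 scale (SE 0.0633, 95% interval 0.29 to 0.56, edgeR adjusted p = 0.000154), where 2.96% of all genes were called in either direction and 1.26% as higher. It was higher in shADAR1 in 12 of 12 same-numbered pairs of libraries, as were 1.33% of genes. A joint edgeR test for a difference between the 4 line effects gave an adjusted p of 0.86 without the block, where it called 0.0234% of all genes, and 0.00364 with it, where it called 4.69%. The joint test in DESeq2, without the block, gave an adjusted p of 0.272.

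**Figure D4:**
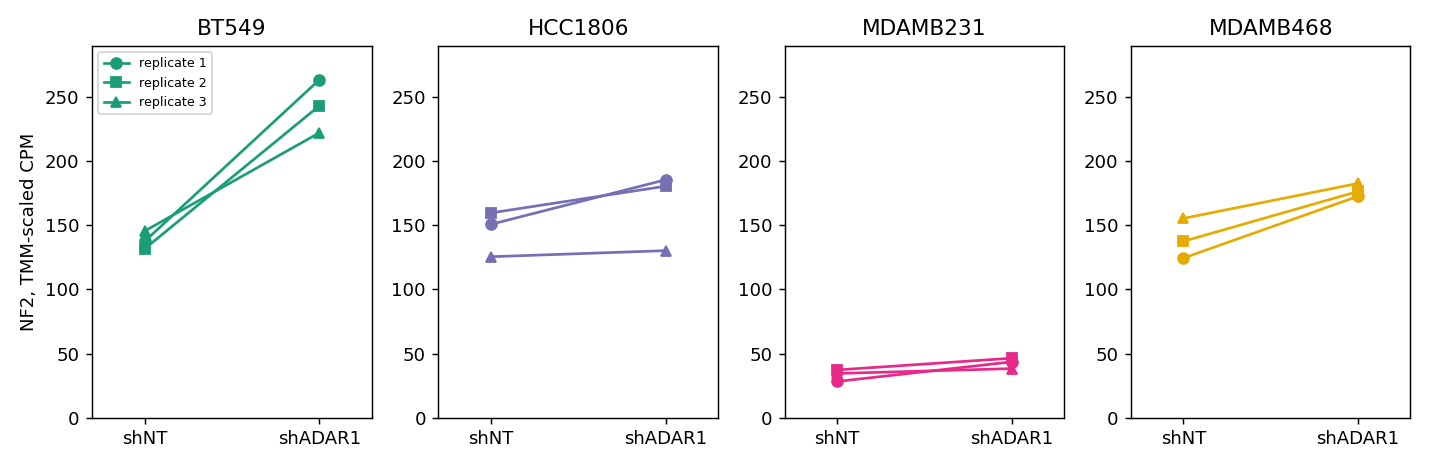
TMM-scaled CPM of NF2 (linear axis from 0) in shNT and shADAR1 libraries of each line, with lines joining libraries of the same replicate number. All 12 lines slope upward, from 28.2 to 43.5 CPM for replicate 1 of MDAMB231 and from 137 to 264 CPM for replicate 1 of BT549.

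MTAP stood slightly lower in shADAR1 in each line that kept it. Its libraries were at 50.2, 53.6 and 62.8 CPM in shNT and 47.7, 48.6 and 56.2 CPM in shADAR1 of BT549, and at 49.95, 40.6 and 42.0 CPM against 41.9, 37.0 and 34.7 CPM in HCC1806, with overlap in both. In MDAMB468 shADAR1 libraries, at 48.1, 45.6 and 47.4 CPM, lay just below the lowest shNT library at 48.6 CPM, as in 4.3% of genes. All 9 same-numbered pairs had the lower value in shADAR1, which was so for 2.07% of genes. The mean over the 3 lines was -0.15 on the log2 scale (SE 0.0636, 95% interval -0.28 to -0.016), with an edgeR adjusted p of 0.479 without the replicate block and 0.0176 with it (7.72% of all genes called).

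The cell-cycle genes of the group gave intervals around 0. For RB1 the mean log2 fold change over BT549, HCC1806 and MDAMB231 was -0.03 (95% interval -0.15 to 0.093, edgeR adjusted p = 0.993). This interval came from F and is narrower than the unadjusted edgeR p of 0.733 would give. The line effects were 0.05, 0.06 and -0.19. In MDAMB231 the shADAR1 libraries were at 80.4, 72.0 and 82.0 CPM against 97.3, 80.3 and 90.9 CPM in shNT, overlapping, with an edgeR adjusted p of 0.482. For CDKN2A the mean over BT549 and MDAMB468 was -0.02 (95% interval -0.17 to 0.12, edgeR adjusted p = 1), and the shADAR1 means were 230 CPM and 83.8 CPM. For CDKN2B it was 0.14 (95% interval -0.10 to 0.39, edgeR adjusted p = 0.958). Its shADAR1 libraries were at 41.4, 49.4 and 51.2 CPM in MDAMB468, above the same-numbered shNT library in 3 of 3 pairs but overlapping between arms.

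The signalling genes NF1 and SMAD4 had means close to 0. NF1 had a mean log2 fold change of 0.0032 over the 4 lines (95% interval -0.090 to 0.097), and its line effects ran from -0.014 to 0.014. SMAD4 had a mean of 0.02 (95% interval -0.15 to 0.19), and of -0.02 over the 3 lines other than MDAMB468. In MDAMB468, where it was lowest, shADAR1 libraries of SMAD4 gave 2.65, 3.34 and 3.21 CPM, inside the shNT range. An interval that spans 0 does not show that the arms were equal.

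STK11 and BRCA1 each differed in 1 line only when replicates were blocked. STK11 in MDAMB231 was at 82.0, 98.8 and 83.2 CPM in shNT and 100.2, 111 and 94.7 CPM in shADAR1, higher in 3 of 3 pairs with overlapping arms. Its log2 fold change was 0.21 (SE 0.0871), with an edgeR adjusted p of 0.311 without the block and 0.011 with it. In HCC1806 the arms of STK11 did not overlap (108.9, 108.1 and 112.9 against 115.4, 114.1 and 117.2 CPM), as in 4.38% of genes, at a log2 fold change of 0.07. Over the 4 lines the mean for STK11 was 0.06 (95% interval -0.031 to 0.15, edgeR adjusted p = 0.662). BRCA1 in HCC1806 was at 61.4, 51.3 and 62.8 CPM in shNT and 76.8, 54.8 and 85.2 CPM in shADAR1, again higher in 3 of 3 pairs with overlap. Its log2 fold change was 0.31 (SE 0.125), with an edgeR adjusted p of 1 without the block and 0.0361 with it. In MDAMB468 BRCA1 shADAR1 libraries, at 59.8, 60.5 and 62.2 CPM, lay below the shNT libraries at 68.2, 65.0 and 70.9 CPM, as in 4.3% of genes. There BRCA1 had a log2 fold change of -0.16 and an edgeR adjusted p of 1. Its mean over the 4 lines was 0.04 (95% interval -0.086 to 0.17). With the block, 1 member was called in HCC1806, 2 in MDAMB231 and 1 in MDAMB468, where 2.1%, 11.4% and 1.66% of all genes were called. In the mean over kept lines 2 members were called with the block, NF2, where 13.2% of all genes were called, and MTAP, where 7.72% were.

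The 7 lists of partner genes, which share none with the 9, place these values in their pathways. In the RB pathway, 4 of 20 genes rose and 1 fell in the mean of the 4 lines, against 2.96% of all genes called. CDK6, a kinase that phosphorylates the retinoblastoma protein, rose by 0.43 on the log2 scale (SE 0.0735, edgeR adjusted p = 0.000734), with means of 179 ± 16.5 CPM in shNT and 299 ± 12.8 CPM in shADAR1 of MDAMB231. CCND3, a D cyclin that partners it, rose by 0.35 (edgeR adjusted p = 0.000544). CDKN2D, which encodes the CDK4 and CDK6 inhibitor p19INK4d, rose by 0.42 (edgeR adjusted p = 0.000398), and E2F1, outside the naming rule, by 0.20. CDKN2C, also outside that rule, which encodes the inhibitor p18INK4c, fell by 0.25 in the mean and by 0.72 in BT549 (edgeR adjusted p = 0.00367). In single lines, CCND3, CDK6 and CDKN2D passed the test in MDAMB231 and CDKN2C in BT549. The median of the list in the mean of the 4 lines was 0.021, beside 0.018 over all genes.

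Beside MTAP, 1 of 15 genes of methionine salvage, polyamine synthesis and the PRMT5 complex rose and 1 fell in the mean, against 2.96% of all genes called. SMS, spermine synthase, whose reaction releases the substrate of MTAP, fell by 0.42 (SE 0.0478, edgeR adjusted p = 4.45e-06). It fell in MDAMB231, which had no MTAP counts, from 150 ± 9.18 to 91.5 ± 3.44 CPM, and in BT549, which kept MTAP, from 222 ± 20.5 to 145.7 ± 3.26 CPM. WDR77, a subunit of the PRMT5 methyltransferase complex, rose by 0.23 in the mean (edgeR adjusted p = 0.0317) and by 0.51 in MDAMB231.

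For the next 3 lists the counts are 1 or 2 of 16 genes, to be read against the 2.96% of all genes called in the mean of the 4 lines. Beside SMAD4, 1 of 16 TGF-beta genes rose and 1 fell in that mean. SKIL, a co-repressor that binds SMAD4, rose by 0.28 (edgeR adjusted p = 0.0195), and SMURF2, a ubiquitin ligase of the pathway, fell by 0.33 (edgeR adjusted p = 0.0285). Beside STK11, 1 of 16 genes fell: STRADB, a pseudokinase that binds and activates LKB1, by 0.86 in the mean (edgeR adjusted p = 9.93e-05) and by 1.37 in MDAMB231, from 19.1 ± 3.96 to 7.30 ± 3.42 CPM. Beside NF1, 1 of 16 genes fell: NRAS, one of the RAS proteins that neurofibromin switches off, by 0.28 in the mean (edgeR adjusted p = 0.000715).

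For the Hippo list, which belongs with NF2, edgeR called 0 of 19 genes in the mean of the 4 lines, with 6 at an unadjusted p under 0.05 and 1 called by DESeq2. Its median was 0.084 in the mean and 0.13 in BT549, where NF2 itself passed the test, beside 0.018 and 0.014 over all genes. With the replicate block 11 of the 19 were called in the mean, 9 of them higher, where 13.2% of all genes were called. For the homologous recombination list, which belongs with BRCA1, edgeR called 0 of 16 in the mean, with 3 at an unadjusted p under 0.05 and 0 by DESeq2. Its median was 0.058.

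The medians of the methionine and PRMT5, TGF-beta, LKB1 and RAS lists in the mean of the 4 lines were 0.041, -0.038, 0.039 and -0.059. With the replicate block edgeR called 4 of 15, 10 of 16, 5 of 16 and 7 of 16 genes of these lists in that mean, 9 of 20 of the RB pathway and 3 of 16 of homologous recombination, beside 13.2% of all genes.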

How the data were processed

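RNA of 24 libraries in 8 groups of 3 was sequenced, after removal of ribosomal RNA per the labels' protocols. Per the file headers, the deposited files hold whole-number read counts per gene, and each deposited CPM value is that count scaled to the library's total. The deposited RPKM values divide CPM by the listed gene length in kilobases. Values recomputed in that way differed from them by at most 1.2e-10. The submitters' processing notes name bcl2fastq, STAR, Subread, featureCounts and edgeR, with no role. Build, annotation and strand use are not given in the sources used here. Of the 37416 genes, 34265 were in GENCODE 29 (GRCh38) and 31297 had the same start and end there, and coordinates are as the files list them. Symbols from a name table matched 33972 genes.

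Genes were filtered with filterByExpr (21352 left), scaled by TMM (factors 0.924 to 1.12) and tested with edgeR 4.0.16 in R 4.3.3 on the deposited counts: a quasi-likelihood F test, 2-sided, 1 coefficient per group, Benjamini-Hochberg adjustment over all genes tested, threshold 0.05. The common biological coefficient of variation was 0.176. SE and 95% intervals came from the fold change, F and the total degrees of freedom. The procedure was tested on simulated counts. Contrasts were each line, the mean of the 4 lines, the mean over lines that kept a gene, and a joint test of line differences. The members, the 7 lists and the tests were chosen with earlier results of these data known. Named were all members, ADAR, the near-zero neighbours and the nearest kept ones, up to 3 called genes per list, and the 3 most alike genes of each member with a near-zero line. The arms of a line share replicate numbers, and libraries of 1 number departed in the same direction from their group's mean (12 correlations over genes, 0.253 to 0.812, each over 0.1), so they were read as pairs from the data, not from the labels. Alternatives were RLE and upper-quartile scaling, no filter, at least 10 counts in every library, DESeq2 1.42.0, 6 libraries of a line only, the replicate block, other near-zero limits and windows, and leaving out each library.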

Additional observations from a re-analysis of the deposited data

Results flagged for a closer look

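In 2 genes the effect of ADAR1 knockdown differed between the 4 lines by the joint edgeR test with the replicate block. For NF2 the adjusted p was 0.00364 (0.86 without the block), and the log2 fold change was 0.81 for BT549, 0.19 for HCC1806 and 0.35 for both MDAMB231 and MDAMB468, above 0 in all lines. For BRCA1 the adjusted p was 0.0421 (1 without the block), with log2 fold changes of 0.08, 0.31, -0.05 and -0.16 in the same order. With that block 4.69% of all genes passed the joint test, and without it 0.0234%. The joint test in DESeq2, without the block, called neither gene (adjusted p = 0.272 for NF2 and 0.804 for BRCA1).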

How the results depend on the processing

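The tests of member fold changes, in single lines and in the mean over kept lines, were rerun under each alternative, 1222 times over 40 results. In 1217 the result kept its side of the threshold. The call of NF2 in BT549 and in the mean of the 4 lines was kept in each. Values that were not called changed sign 85 times. The other 5 changes came under the replicate block, which turned uncalled results into calls: MTAP in the mean over kept lines (log2 fold change -0.15), STK11 in MDAMB231 (0.21), NF2 in MDAMB231 (0.34) and MDAMB468 (0.35), and BRCA1 in HCC1806 (0.29). The joint tests of line differences are not in these counts. Those of NF2 and BRCA1 also passed the threshold only with the block (joint edgeR adjusted p = 0.00364 and 0.0421).

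The replicate block moved the counts of genes called to 1098 in BT549 (101 without it), 448 in HCC1806 (10), 2437 in MDAMB231 (429), 354 in MDAMB468 (8), 2820 in the mean of the 4 lines (632) and 1002 in the joint test (5). Members called with the block were 1 in HCC1806, 2 in MDAMB231, 1 in MDAMB468 and 2 in the mean over kept lines. DESeq2 called 300, 41, 814 and 45 genes in BT549, HCC1806, MDAMB231 and MDAMB468, 1089 in the mean and 125 in the joint test. Fits of only the 6 libraries of a line called 226, 0, 117 and 21 genes in the same order, the 0 with 426 genes at an unadjusted p under 0.05. With at least 10 counts in every library 185 genes were called in BT549, 16 in MDAMB468 and 25 in the joint test, and with no filter 18 in HCC1806 and 22 in the joint test. The cause of these shifts was not tested. Leaving out 1 library at a time gave 61 to 122, 4 to 15, 202 to 526 and 3 to 13 genes in the 4 lines, 500 to 706 in the mean and 2 to 14 in the joint test, with 1 member called in BT549 and 1 in the mean over kept lines throughout, and 0 in the other lines.

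Near-zero pairs of gene and line numbered 6 to 7: 6 at a limit of 2%, 7 at 10%, and 7 without the second shNT library of MDAMB468, the added pair being SMAD4 in MDAMB468. A rule of 0 counts in all 3 shNT libraries, added after the data were seen, gave 5, without RB1 in MDAMB468. Near-zero neighbours of RB1 in MDAMB468 numbered 3 at a limit of 10% and 2 in a window of 2 Mb. At these depths, 0 counts in 1 library allow a level of 0.0339 to 0.277 CPM.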
